A study of Mus musculus with 1392 samples.

Results

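Chromatin accessibility was examined at the loci of 6 genes that regulate lymphoid development, Flt3, Notch1, Ikzf1, Bcl11a, Satb1 and Foxo1, in haematopoietic stem cells of young and old mice. The loci were fixed windows on mm9, and every peak of the table that overlapped a window was taken, whatever its values. This gave 97 of the 115295 peaks, namely 15 for Flt3 (chromosome 5, 148120000 to 148240000), 14 for Notch1 (chromosome 2, 26300000 to 26400000), 20 for Ikzf1 (chromosome 11, 11560000 to 11700000), 25 for Bcl11a (chromosome 11, 23950000 to 24100000), 9 for Satb1 (chromosome 17, 51850000 to 52000000) and 14 for Foxo1 (chromosome 3, 52050000 to 52170000). The measurement was plate-based single-cell ATAC-seq, where open DNA receives sequencing adapters from a transposase. Both groups were bone marrow cells of the C57BL/6 strain, negative for lineage markers, CD48 and CD34 and positive for CD150, Kit, Sca-1 and Vwf, which encodes von Willebrand factor. They differed in age, given only as young or old, and no treatment or altered allele is named. The cells of the sort stand for Vwf-positive stem cells alone, not for all stem cells.

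There were 332 young cells in 2 sets, young 1 and young 2, and 1060 old cells in 3 sets, old 1, old 2 and old 3. A set is the number in a cell's title, taken as the replicate, although nothing says whether sets are separate animals, pools or plates, and p-values therefore measure the spread between sets alone, which may be technical. Cell numbers ran from 156 to 347 in young 1 and from 1 to 155 in young 2 with 0 in common, while any 2 old sets shared between 303 and 370 numbers. No cell barcodes are given in the table, and 0 cells had identical columns. Total counts per set lay between 1159957 and 4181770. The deepest cells were those of young 2 and old 1, with medians of 11807 and 9623 counts per cell, followed by 6133 for young 1, 4434 for old 2 and 3604.5 for old 3, and 27.8% of old 1 cells had under 2000 counts. No set mixes the ages, so the effects of age and of set preparation cannot be told apart. Where values of all sets are listed, they are in the order young 1, young 2, old 1, old 2, old 3. The table names peaks by position alone, so the sort was not checked against its markers.

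Stem cells commit to the lymphoid lineages stepwise. Multipotent progenitors first gain the receptor FLT3, Notch signals then direct T-cell fate in the thymus, and transcription factors such as Ikaros, BCL11A, SATB1 and FOXO1 open and hold the lymphoid and B-cell programmes. Many loci of this kind are already open, at low expression, in stem cells, and a loss of lymphoid output is a known feature of old marrow. In the RefSeq gene order of GRCm38.p6, a later build than mm9, the nearest protein-coding neighbours were Urad and Pan3 for Flt3, Sec16a and Egfl7 for Notch1, 4930512M02Rik and Fignl1 for Ikzf1, Papolg and Fancl for Bcl11a, Tbc1d5 and Kcnh8 for Satb1, and Maml3 and Cog6 for Foxo1. No annotation of mm9 was used, so which peaks are promoters, lie in exons or introns or belong to a neighbour was not determined.

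The 250 bases before the annotated start of the 3 genes whose windows held the peaks with the smallest p-values are given here, since they hold the core promoter of each gene (RefSeq, GRCm38.p6, 5′ to 3′ on the gene's strand, which is minus for Flt3 and Notch1 and plus for Foxo1). Capitals mark GGAA or its reverse complement TTCC, the core of the motif bound by ETS factors. Whether a peak of the table covers these bases cannot be told across builds.
Flt3: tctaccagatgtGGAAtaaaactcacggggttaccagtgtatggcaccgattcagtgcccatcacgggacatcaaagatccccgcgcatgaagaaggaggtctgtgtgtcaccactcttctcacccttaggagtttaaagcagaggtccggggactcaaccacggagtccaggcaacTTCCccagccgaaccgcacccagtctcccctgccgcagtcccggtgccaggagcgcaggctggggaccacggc
Notch1: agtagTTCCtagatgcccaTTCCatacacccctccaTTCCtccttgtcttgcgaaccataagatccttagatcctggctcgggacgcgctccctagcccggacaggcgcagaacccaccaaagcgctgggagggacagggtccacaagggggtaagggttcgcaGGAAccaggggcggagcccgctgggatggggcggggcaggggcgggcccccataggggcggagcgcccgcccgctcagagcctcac
Foxo1: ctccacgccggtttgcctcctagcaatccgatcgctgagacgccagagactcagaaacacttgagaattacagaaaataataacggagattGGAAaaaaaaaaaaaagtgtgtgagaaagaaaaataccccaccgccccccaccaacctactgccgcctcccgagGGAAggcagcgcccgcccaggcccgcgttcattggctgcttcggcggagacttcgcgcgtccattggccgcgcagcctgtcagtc
The core occurs 2 times before Flt3, 4 times before Notch1 and 2 times before Foxo1, and 93.4% of 32851 promoter stretches of this length hold it at least once. The RUNX motif TGTGGT, present in 14.0% of stretches on either strand, occurs in none of the 11 stretches listed for the 6 genes. The motif AGATAA of erythroid and stem-cell zinc finger factors, present in 9.99%, occurs in none of them either, which says only that these letters are absent from those bases. Both strands were searched for all 3 motifs, and no motif contains another.

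All 6 loci carried accessible chromatin in both ages, and none of the 6 summed signals passed the test between ages. Counts of all peaks of a window were added up per set. They were scaled by the TMM-adjusted set total to CPM, a unit that makes sets of unequal depth comparable. The windows were tested with edgeR's quasi-likelihood test. All other peaks were summed in bins of 120 kb, and the 14643 bins that passed a filter on counts were tested with the windows. The rule for a call was an adjusted p (Benjamini-Hochberg) under 0.05. It was met by 5.69% of windows and bins, 2.74% higher in old and 2.95% higher in young cells, and by 0 of the 6 windows with edgeR and 0 with DESeq2. An unadjusted p under 0.05 was reached by 19.5% of windows and bins and likewise by 0 of the 6. Per 100 kb of sequence, the mean signal was 217.02 CPM at Notch1, 167.6 at Bcl11a and 127.2 at Flt3. It was 109.8 at Ikzf1, 98.5 at Foxo1 and 53.2 at Satb1. The median was 40.1 over the tested bins, from which bins with few counts had been left out. Notch1 thus lay above 98.2% of the tested bins and Satb1 above 59.6%.

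Flt3, the receptor whose appearance marks the step towards lymphoid progenitors, was the window whose sets of the 2 ages did not overlap. It had 161.6 and 172.5 CPM in young against 154.6, 136.2 and 138.6 in old sets, so that every old set lay below every young set. Of the windows and bins, 16.7% had old sets below and 19.7% old sets above all young sets, 36.4% in all. The mean was 167.03 ± 7.68 (SD, n = 2) in young and 143.1 ± 10.01 (SD, n = 3) in old sets, a log2 difference of -0.22 with a 95% interval of -0.48 to 0.03 (edgeR adjusted p = 0.341).

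Notch1, the receptor that directs T-cell fate, had 213.7 and 236.6 CPM in young against 235.004, 205.3 and 194.5 in old sets, a log2 difference of -0.09 (95% interval -0.34 to 0.16, edgeR adjusted p = 0.749). The ages overlapped, with old 1 beside young 2. Ikzf1, which encodes Ikaros, a zinc finger factor needed for lymphocytes, had 165.1 and 145.6 CPM in young and 138.9, 163.1 and 155.8 in old sets. Its log2 difference was -0.02 with an interval of -0.28 to 0.24, and old and young sets were intermixed. Bcl11a, a zinc finger repressor needed for B cells, had 248.1 and 258.3 CPM in young and 242.9, 243.2 and 264.7 in old sets, a log2 difference of -0.02 with an interval of -0.26 to 0.21. Young and old sets of Bcl11a were intermixed as well.

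Satb1, which encodes a chromatin organizer of lymphoid cells, had 107.7 CPM in young 1 and 75.003 in young 2, and 73.5, 81.1 and 61.9 in the old sets. The 2 young sets were farther apart than the group means, and the log2 difference was -0.29 (95% interval -0.64 to 0.06, edgeR adjusted p = 0.364). It was -0.051 without young 1 and -0.57 without young 2, so the size of the Satb1 difference rested on which young set was kept. Foxo1, a forkhead factor that controls lymphocyte genes and is held back by growth factor signals, was the window with a positive value, with 115.7 and 105.1 CPM in young and 113.5, 115.8 and 140.96 in old sets. Its log2 difference was 0.16 (95% interval -0.13 to 0.45, edgeR adjusted p = 0.595), with 0.066 without old 3, 0.079 without young 2, 0.058 with the set number as a block and 0.37 without the strongest peak. Among its sets, old 3 was the highest and old 1 lay between the young sets.

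**Figure D1:**
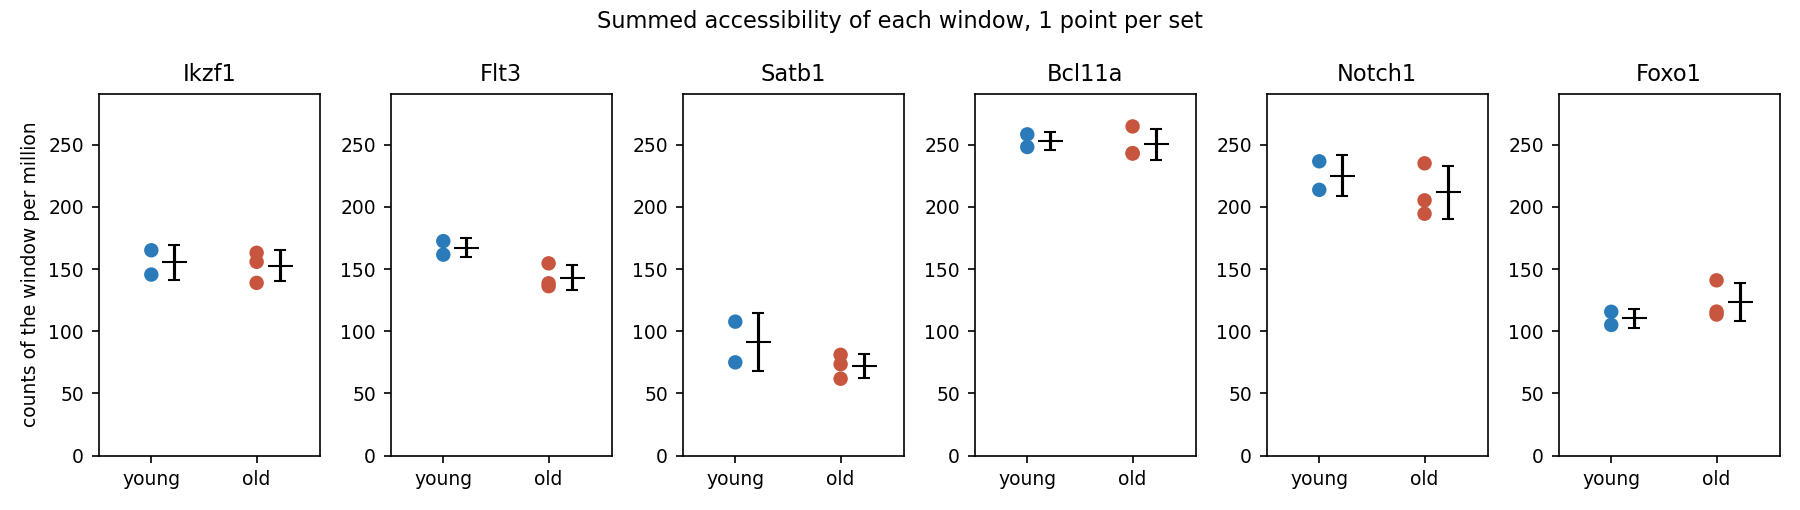
Summed counts of each window in CPM (y axis, linear from 0) for the 2 young (blue) and 3 old (red) sets, with mean and SD as bars beside the points. The old sets of Flt3 lie between 136.2 and 154.6, below both young sets, and the ages overlap in the other 5 windows.

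The stretch of equal length on either side of each window gave a neighbourhood to compare with, except below Satb1, where the table has no peak. None of these 11 flanks was called, where 5.64% of features in that fit were. Beside Foxo1 the lower flank had a log2 difference of -0.46 (95% interval -0.81 to -0.10, edgeR adjusted p = 0.125), of opposite sign to the Foxo1 window, with 68.2 and 64.5 CPM in young and 50.9, 49.2 and 42.5 in old sets. The flanks of Flt3 differed in sign, with 0.11 below and -0.23 above. Every old set of the upper Flt3 flank lay below every young set, as in the Flt3 window. The values there were 78.8 and 86.9 CPM in young and 72.6, 70.6 and 69.97 in old sets. In the lower Flt3 flank the ages overlapped. Of the features in that fit, 36.6% had ages that did not overlap, in either direction. The upper flank of Satb1, a stretch of 3 peaks, had -0.71 (edgeR adjusted p = 0.247). By the root mean square difference of their centred log2 CPM over the 5 sets, Flt3 and Notch1 were each other's closest windows, at 0.08. The closest bins were nearer still, at 0.017 for Flt3 (chromosome 2, from 131160000) and 0.012 for Notch1 (chromosome 7, from 71400000). They were picked from 14643 bins, far more candidates than the other windows, which by itself favours a smaller distance.

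Single peaks were a mixture, with old above young at some and below at others inside the same window. Of the 97 peaks, 54, or 55.7%, passed the count filter and were tested, where 50.5% of all peaks were. The 54 had 39 to 601 counts each over all sets, while the other 43 had 7 to 57 and were left out. The filter asks for a minimum level at each set's depth in 2 sets. A weak peak can thus enter through the age where it is high, which favours that sign and sets that do not overlap. In the fit over all 58167 tested peaks, 3.17% were called, 1.39% higher in old and 1.78% higher in young. These were 808 and 1036 peaks, and the balance turned to 1051 and 770 with library totals in place of TMM. Of the 54, 1 was called, a peak of the Notch1 window that was higher in old cells, and none was called higher in young cells. The median log2 difference of the 54 was -0.13, with 21 above and 33 below 0, against a median of -0.01 over all tested peaks. Every old set was below every young set at 13 of the 54 peaks, or 24.1%, where 16.7% of all tested peaks show this, and above every young set at 5, or 9.26%, where 16.4% do. At an unadjusted p under 0.05 there were 6 peaks, or 11.1% of the 54, against 15.4% of all tested peaks, 3 of them higher in old and 3 higher in young cells.

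**Figure D2:**
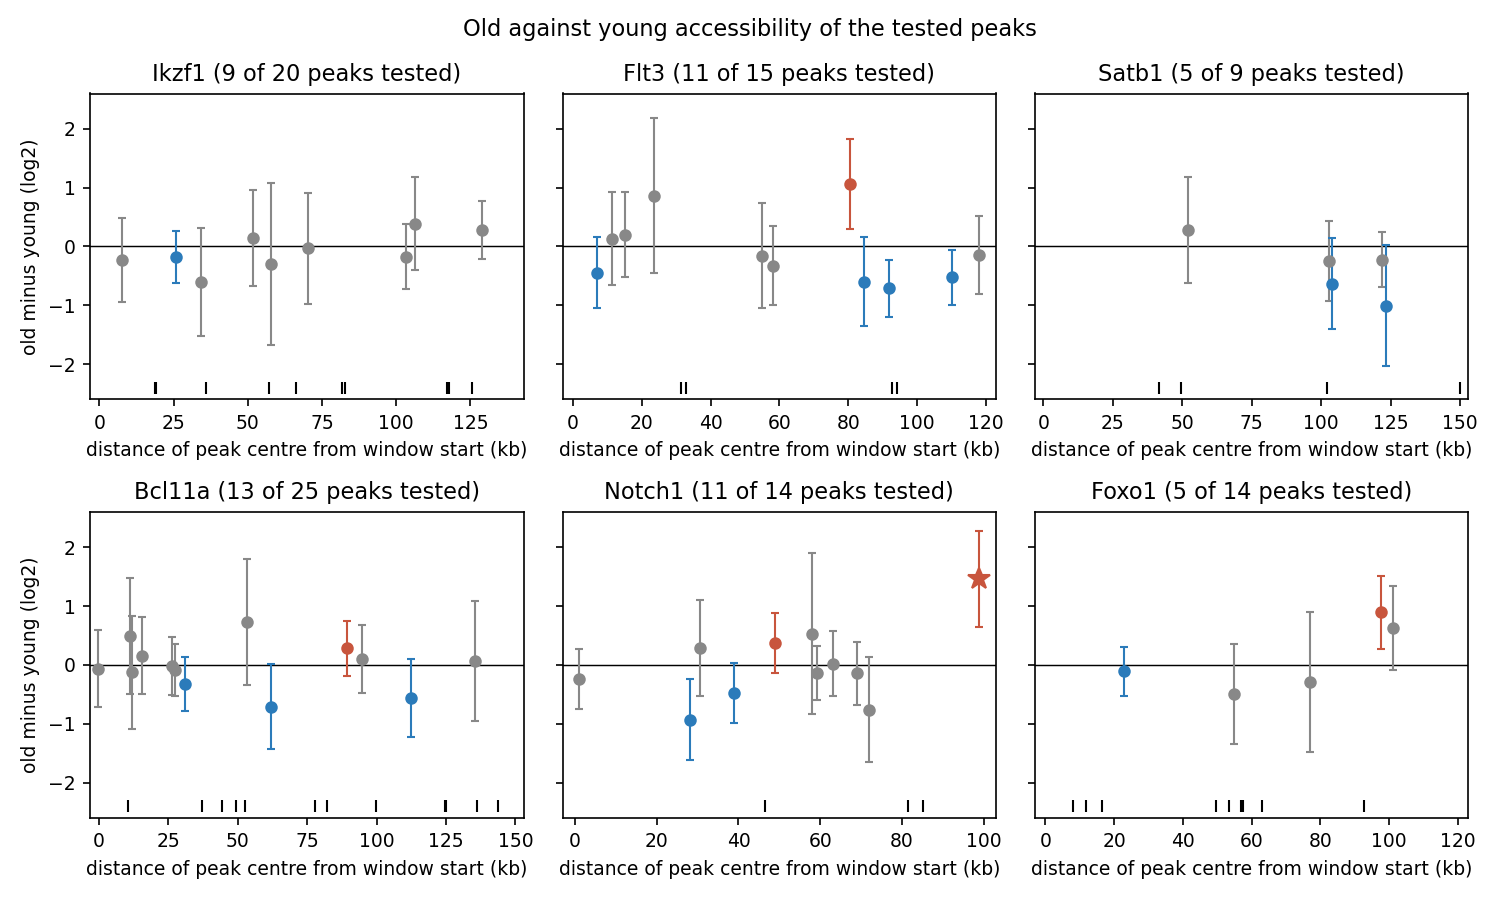
Log2 difference of old minus young (y axis) with 95% intervals for each tested peak, against the distance of its centre from the start of the window in kb (x axis), with red for old sets all above young, blue for all below, grey for overlap, a star for the called peak and ticks at the bottom for peaks not tested. The called Notch1 peak stands at 1.46, and peaks of both signs lie in each of the 6 windows.

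The called peak of the Notch1 window lay at its upper end, on chromosome 2 at 26398553 to 26399203. It had 5.98 and 4.49 CPM in young against 13.1, 13.5 and 15.3 in old sets. Each old set was above each young set, and the old sets were close to one another. The log2 difference was 1.46 (standard error 0.41, edgeR adjusted p = 0.0312). With 6 and 10 counts in the young sets, the peak reached the level of the count filter in young 1 but not in young 2. All old sets reached it, so the peak entered the test through old sets, and the filter favoured its positive sign. The peak rested on 115 counts in 98 cells, and a count was seen in 2.21% and 5.96% of young cells against 13.7%, 6.05% and 5.35% of old cells by set, shares that depend on depth. With every cell thinned to 1906 counts they were 1.13% and 1.37% against 2.70%, 2.18% and 2.65%, old above young in each case, on 2 and 2 counts in young against 6, 8 and 9 in old sets. The difference ran from 1.23 to 1.62 with 1 set left out, and the adjusted p then lay between 0.0543 and 0.405, so the call needs all 5 sets. It was also lost with DESeq2 (1.46, adjusted p = 0.343) and with the set number as a block (1.38, edgeR adjusted p = 0.105).

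Elsewhere in the Notch1 window the signs were mixed. At 26327813 to 26328246 the peak had 17.9 and 16.2 CPM in young and 11.02, 6.77 and 7.31 in old sets, a log2 difference of -0.93 (standard error 0.34, edgeR adjusted p = 0.135). All old sets were below both young sets there, the reverse of the called peak, so that for each count at 26327813 the peak at 26398553 had 0.333 and 0.278 counts in young against 1.19, 2.00 and 2.09 in old sets. This ratio involves no scaling between sets, but its 2 peaks were picked for opposite signs, so it is a description. The strongest peak of the window, at 26300348 to 26301867, had 44.8 and 71.3 CPM in young and 67.4, 48.97 and 30.5 in old sets. It was highest in young 2 and old 1, the sets with the most counts per cell, and lowest in old 3, the set with the fewest. The part of depth in this order was not tested. The peaks at 26358428 to 26359919 and at 26348394 to 26349512 had log2 differences of -0.14 and 0.37 (edgeR adjusted p = 0.835 and 0.520), the latter with all old sets, at 29.6, 33.9 and 37.2 CPM, above the young sets at 20.9 and 28.7.

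At Flt3 both of the strongest peaks had less signal in every old set. The peak at 148211507 to 148212339 had 46.8 and 38.1 CPM in young against 27.8, 27.1 and 19.9 in old sets, a log2 difference of -0.71 (standard error 0.24, edgeR adjusted p = 0.096). The peak at 148229659 to 148230699 had 39.8 and 42.2 in young and 27.5, 26.05 and 33.2 in old sets, a difference of -0.52 (standard error 0.23, edgeR adjusted p = 0.255). Neither passed the threshold over all peaks. A weaker peak at 148200316 to 148200994 went the other way, with 6.97 and 6.28 CPM in young and 13.1, 13.02 and 15.3 in old sets. Its difference was 1.06 (standard error 0.38, edgeR adjusted p = 0.13), on 119 counts in 99 cells. For each count at 148211507 the peak at 148200316 had 0.149 and 0.165 counts in young against 0.472, 0.481 and 0.767 in old sets, again for peaks picked for opposite signs. The third strongest peak, at 148126438 to 148127266, had a difference of -0.45 (edgeR adjusted p = 0.502) and old sets below young. In all, the old sets lay below the young sets at 4 of 11 tested Flt3 peaks, or 36.4%, and above them at 1, or 9.09%, against 16.7% and 16.4% of all tested peaks.

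**Figure D3:**
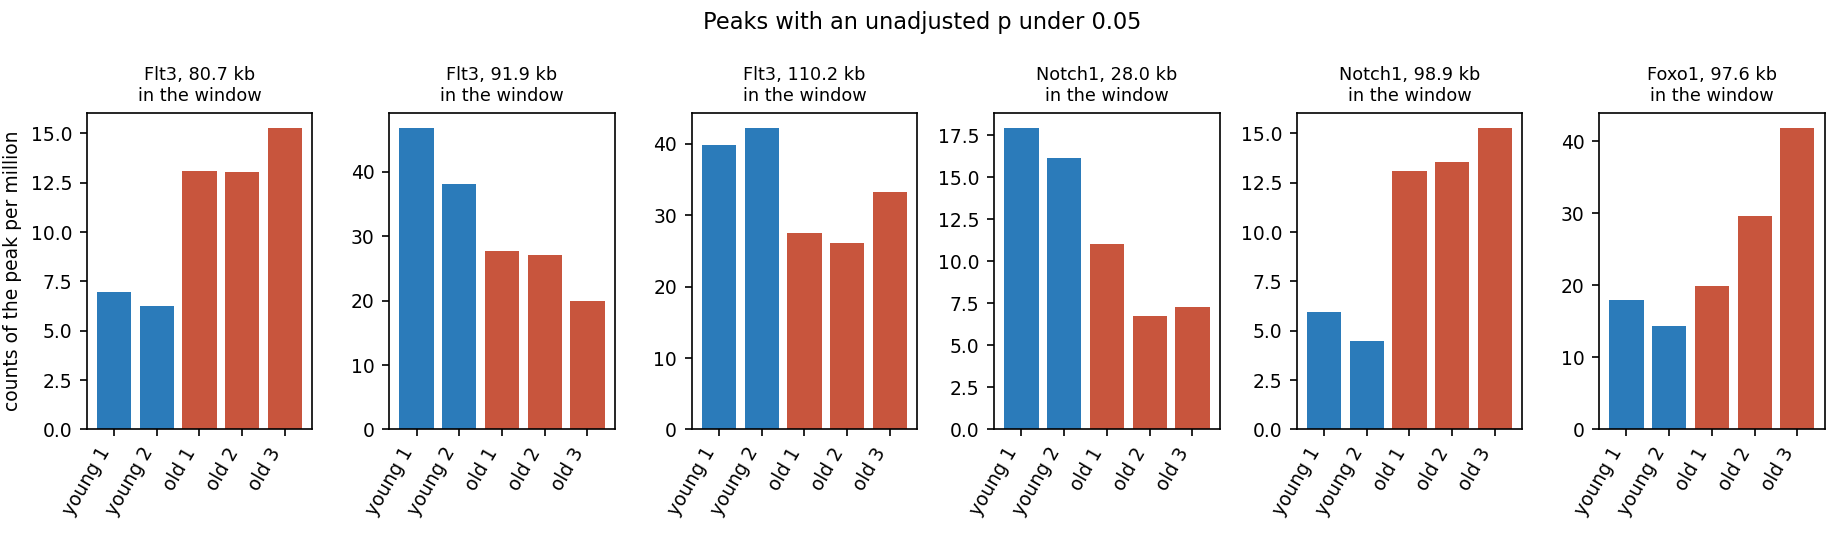
CPM in each set (bars from 0, blue young and red old, a separate scale per panel) for the 6 peaks with an unadjusted p under 0.05, named by gene and by distance from the start of the window. At 80.7 kb of the Flt3 window the old sets stand at 13.02 to 15.3 against 6.28 and 6.97 in young, and at 91.9 kb they stand at 19.9 to 27.8 against 38.1 and 46.8.

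In the Foxo1 window the signal was concentrated in 3 peaks, which held 72.0% of its counts. The strongest, at 52071509 to 52074255 and the widest of the 97 at 2746 bp, was high in every set, with 59.8 and 59.2 CPM in young and 55.6, 53.7 and 55.8 in old sets, old just below young, and a log2 difference of -0.11 (95% interval -0.53 to 0.30). The peak at 52147210 to 52148074 had 17.9 and 14.4 CPM in young and 19.9, 29.7 and 41.8 in old sets, a log2 difference of 0.89 (standard error 0.31, edgeR adjusted p = 0.102). Old sets were above young sets but far apart, and the highest were old 3 and old 2, which had the fewest counts per cell. The part of depth in this was not tested. With each cell counted once per peak, the difference was 0.97 and passed (edgeR adjusted p = 0.0124), and without old 1 it was 1.21 and passed (adjusted p = 0.024). The other 12 alternatives did not pass, and over all 14 the difference ran from 0.65 to 1.21 with an edgeR or DESeq2 adjusted p of up to 0.52, the lowest values being those with the set number as a block (0.65) and without old 3 (0.65). Its neighbour at 52150894 to 52151283 had 10.96 and 8.97 CPM in young and 15.7, 10.9 and 18.6 in old sets, a difference of 0.63 (edgeR adjusted p = 0.398). The share of the window's counts in its strongest peak was 45.8% and 50.4% in young and 44.4%, 41.2% and 35.4% in old sets, lower in each old set.

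No peak of the Ikzf1 or Bcl11a windows was called. At Ikzf1 the strongest, at 11584910 to 11586433, had 46.8 and 44.4 CPM in young and 39.1, 42.7 and 39.2 in old sets, a log2 difference of -0.17 (95% interval -0.62 to 0.27). The next, at 11688452 to 11689087, had 0.29, and that at 11662722 to 11663776 had -0.17, with young and old sets overlapping at both. The weak peak at 11594086 to 11594520 had the smallest p of those lower in old, with -0.61 (edgeR adjusted p = 0.563). None of the 9 tested Ikzf1 peaks had an unadjusted p under 0.05. At Bcl11a the strongest peak, at 23976879 to 23978146, had 44.8 and 46.7 CPM in young and 46.4, 36.5 and 47.1 in old sets. The peak at 24039083 to 24039994 had 33.9 and 32.8 in young and 36.5, 43.8 and 41.8 in old sets, with old above young and a difference of 0.28 (95% interval -0.19 to 0.75). The peak at 23980592 to 23981677 had 38.9 and 42.6 in young and 31.5, 31.8 and 35.9 in old sets, with old below young and a difference of -0.32 (95% interval -0.78 to 0.14). Weaker ones at 24003309 to 24003618 and 24011668 to 24012212 had 0.74 and -0.71 (edgeR adjusted p = 0.546 and 0.33). The former reached the level of the count filter in old sets alone, so the filter favoured its positive sign. None of the 13 tested Bcl11a peaks had an unadjusted p under 0.05.

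Satb1 had the fewest peaks, and 1 of them, at 51970894 to 51972773, held 50.5% of the counts of the window. It had 66.7 CPM in young 1 and 36.8 in young 2, and 40.9, 47.9 and 37.2 in the old sets, so that young 1 was the highest and young 2 the lowest, and the log2 difference was -0.23 (95% interval -0.70 to 0.24). Close by, the peak at 51973370 to 51973677 had 7.97 and 7.18 CPM in young and 3.93, 4.17 and 2.66 in old sets, below the young sets in each case, with a difference of -1.005 on 51 counts (edgeR adjusted p = 0.334). It reached the level of the count filter in the young sets alone, so the filter favoured this sign. The peak at 51953559 to 51954120 had -0.63 with old sets below young, that at 51952229 to 51953410 had -0.25 with overlap, and that at 51901877 to 51902200 had 0.27 with overlap.

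At equal depth, most cells had no count in a given window. Thinning brought every cell to 1906 counts, which is the 10th percentile, and removed 4, 5, 84, 13 and 34 cells from the sets in the order above. In 1 draw, 26.0% and 26.0% of young cells had a count at Flt3 against 18.5%, 26.7% and 21.8% of old cells, and 16.9% and 19.2% of young cells had one at Foxo1 against 12.2%, 18.3% and 20.9% of old cells. The ages overlapped at all 6 windows in this draw. The old minus young differences were -3.70 percentage points at Flt3 and -0.96 at Foxo1 (exact two-sided permutation p = 0.4 and 0.9, where 0.1 is the smallest that 2 sets against 3 allow). At the other windows they were 2.42 for Ikzf1, 3.94 for Satb1, 1.499 for Bcl11a and -3.03 for Notch1, with exact permutation p between 0.3 and 0.9.

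The share expected over all such draws, a measure added after the data were seen because 1 draw was noisy, varied less between sets. At Flt3 it was 24.5% and 25.97% in young against 22.998%, 24.2% and 22.3% in old sets, with all old sets lower and a difference of -2.09 points (exact two-sided permutation p = 0.2). At Foxo1 it was 19.04% and 17.7% in young against 19.8%, 21.4% and 24.1% in old sets, with all old sets higher and a difference of 3.399 points (exact two-sided permutation p = 0.2), so that the draw and the expectation differed in sign. At Bcl11a it was 35.9% and 38.03% in young against 37.6%, 36.6% and 38.4% in old sets, and the ages overlapped there and at Ikzf1, Satb1 and Notch1. Before thinning, 42.2% to 60.3% of the cells of a set had a count at Foxo1 and 39.8% to 75.5% at Flt3, with young 2, the deepest set, highest at all 6 windows. A thinned cell had counts in a mean of 1.44 and 1.51 of the 6 windows in young against 1.40, 1.56 and 1.47 in old sets, which overlap.

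**Figure D4:**
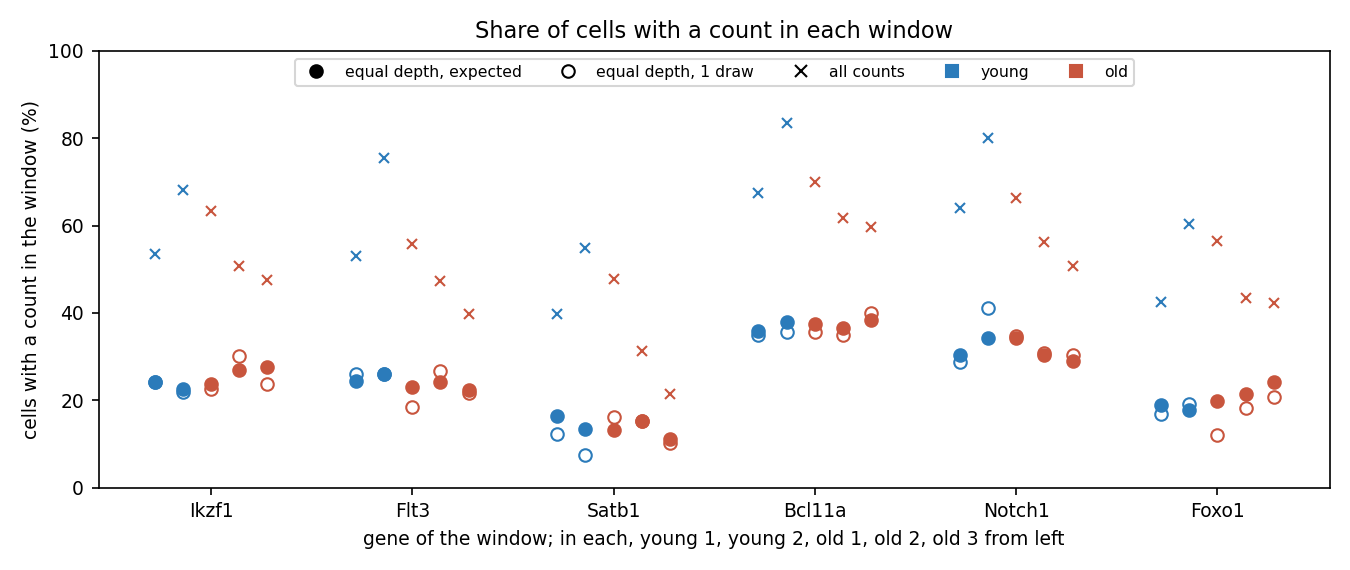
Percent of cells with at least 1 count in each window (y axis) by set, young in blue and old in red, for all counts (crosses), 1 draw to 1906 counts (open circles) and the share expected over all such draws (filled circles). Crosses are highest in young 2, and filled circles of Bcl11a lie between 35.9% and 38.4% in all 5 sets.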

How the data were processed

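Marrow cells were sorted and each was made into a single-cell ATAC-seq library, per the labels' protocols. What the authors deposited is a table of raw counts, in whole numbers and with no normalization seen in the values. Bowtie2, SAMtools, Picard, Trim Galore, FastQC and the build mm9 are listed in the submitters' processing notes. How peaks and cells were called or filtered, and what was counted as 1, is not given in the sources used here, and peaks called on pooled cells would weight the deeper sets. Whether starts count from 0 or 1 is unknown.

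All 1392 columns matched 1 sample title each. The sums per set went into edgeR 4.0.16 under R 4.3.3 (TMM, filterByExpr with a minimum count of 10, robust quasi-likelihood test, age as the only term, Benjamini-Hochberg over all features, threshold 0.05). Standard errors are the log2 difference over the square root of F, and 95% intervals use the t quantile at each feature's total degrees of freedom in edgeR, which borrow from all features. Alternatives were DESeq2 1.42.0, other scaling, filters, cells, peaks, windows and bins, a block for the set number, and each set left out. As a check of pairing by set number, the correlation of deviations was -0.0765 between the sets numbered 1 and -0.000836 between those numbered 2. With 2 young sets, centring forces the same values with the sign turned, 0.0765 and 0.000836, for the other young set. The check therefore cannot decide on pairing, and numbers were not taken as pairs in the main fit. On simulated counts with 200 changed features, the peak fit recovered 12.5% of changes of 1 and 87.5% of changes of 2 on the log2 scale, and the fit of windows and bins 6% of 0.5 and 72.5% of 1. Each simulation gave all features 1 common spread and added no set effects, so the rates hold for that setting alone. The exact permutation used 10 splits. Named peaks are those called, the 3 strongest tested per window and, per window, the tested peak with the smallest p in each direction. Members, windows and tests were chosen with earlier results of these data known. Other lymphoid genes were not analysed here, since peaks were not assigned to genes.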

Additional observations from a re-analysis of the deposited data

How the results depend on the processing

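The filter on counts at each set's depth left 43 of the 97 peaks untested. The tested share was 55.7%, against 50.5% of all peaks. Peaks of the 6 windows called higher in old numbered 0 with DESeq2 or the replicate block and 2 with binarized counts. With a set left out they numbered 0 to 1 (1 without old 1). They also numbered 0 with a minimum count of 30 and with thinned cells. Only 24 and 15 of the peaks were tested there, and the called Notch1 peak was not among them. At a threshold of 0.01, which is the main fit read at a stricter cutoff, there were 0 too. None was called higher in young in any of these. Over all peaks, calls higher in old and higher in young were 130 and 318 with DESeq2, 317 and 452 with a minimum count of 30, 69 and 151 with thinned cells, 318 and 522 at a threshold of 0.01, and 470 and 632 with the replicate block. They were 1051 and 770 with library totals, 845 and 817 with binarized counts and 1218 and 1365 without a filter. With a set left out they ranged from 297 to 762 higher in old and from 479 to 944 higher in young, the lowest without old 3. No window passed in any of 17 alternatives, the replicate block included. The sign turned with library totals, which moved the median of bins to 0.07, for Ikzf1 (0.047) and Bcl11a (0.046), without the strongest peak for Ikzf1 (0.027), and with thinned cells, where counts are few, for Ikzf1 (0.15), Satb1 (0.18), Bcl11a (0.068) and Foxo1 (-0.0023). With a set left out, Ikzf1 ranged from -0.12 to 0.056 and Bcl11a from -0.0597 to 0.0073. Shares of cells turned sign without thinning at Ikzf1 (-6.97 points), Satb1 (-13.9) and Bcl11a (-11.6), at the 25th percentile at Satb1 (-1.14), Bcl11a (-2.304) and Foxo1 (7.998), and in the share over all draws at Satb1 (-1.77) and Foxo1 (3.399). With a set left out they ranged from -0.0909 to 2.47 at Bcl11a, from -9.17 to 3.11 at Notch1 and from -2.85 to 1.51 at Foxo1. Among named peaks, 17 of the alternative values turned sign. Thinned cells gave 0.20 at Ikzf1 11584910, 0.10 at 11662722, 0.19 at Satb1 51970894, 1.15 at Bcl11a 23976879 and -0.25 at 24039083. Bcl11a 23976879 had 0.020 with library totals and 0.0092 with a minimum count of 30, and Foxo1 52071509 had 0.025 with binarized counts. With a set left out, the ranges that crossed 0 were -0.98 to 0.48 at Ikzf1 11594086, -0.23 to 0.0052 at 11662722, -0.12 to 0.63 at Satb1 51901877, -0.59 to 0.0501 at 51952229, -0.64 to 0.20 at 51970894, -0.11 to 0.045 at Bcl11a 23976879 and -0.55 to 0.21 at Notch1 26300348. The causes were not tested.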
